A study of Mus musculus with 12 samples.

Results

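The genes described here are 38 genes of the synaptic vesicle and of exocytosis, taken by symbol from a list out of 24421 genes in the table. The list holds SNARE proteins, synaptotagmins, synapsins, membrane proteins of the vesicle, Rab3 proteins, active zone and priming factors, vesicular transmitter transporters and 2 proteins of vesicle recycling. All 38 were found in the table and all passed the filter on low values, a normalized count of 10 or more in 3 or more libraries, and 30 of them had at least 10 reads in every library.

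The study followed astrocytes of the mouse cerebellum through the first postnatal weeks. Cerebella of Aldh1l1-GFP reporter mice were dissociated at P1, P7, P14 and P28 (postnatal days 1, 7, 14 and 28), cells positive for green fluorescent protein (GFP) were sorted by flow cytometry, and their RNA was sequenced. The labels name the molecule as polyA RNA, and the libraries were made from total RNA without a named selection step. Each time point has 3 libraries, so n = 3 for every group below and 12 libraries in all. All groups share the reporter genotype and the C57/BL6J background, no treatment is named, mice of both sexes were used, and age is the only difference between groups that the labels give. The reporter marks cells in which the Aldh1l1 promoter is active, so a library holds whatever cells passed the GFP gate, and whether a library came from 1 animal or from several is not given in the sources used here. P-values therefore measure the spread between these libraries. The headers of all 12 value columns carry the name P28, and the time points rest on the sample labels.

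Transmitter release depends on vesicles that dock at the active zone, are primed, and fuse with the plasma membrane when calcium enters. Fusion is driven by SNARE proteins that zip together from the vesicle (Vamp proteins) and the target membrane (syntaxins and SNAP proteins), with synaptotagmins as calcium sensors and complexins as clamps. Neurons use a specialised set of these proteins at synapses, while related SNAREs such as Snap23 and Vamp3 serve secretion in many cell types, astrocytes among them.

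Values are normalized counts, the number of reads of a gene divided by a size factor of its library. Reads on genes ranged from 6399499 to 14733985 per library, and the smallest value that 1 read can give ranged from 0.615 to 1.46. Replicates of a time point correlated at 0.849 to 0.965 on the log2 scale, lowest at P28. Astrocyte genes were present in every library: the summed level of 14 astrocyte markers was between 144941 and 160490 at P1, 56434 and 97487 at P7, 289292 and 364888 at P14, and 608779 and 705215 at P28. Sparcl1 had the highest mean of the 14 at each time point, at 81336, 35725, 138450 and 236950. Aldh1l1, whose promoter drives the reporter, had means of 5008, 1470, 1879 and 2921. Genes of other cell types were present too, as given below. P14 replicate 3 had the highest level of its time point for 29 of the 38 genes (76.3%, against 35.6% of all genes tested) and P1 replicate 3 for 26 (68.4%, against 31.7%). P1 replicate 2 had the lowest level for 22 (57.9%, against 36.1%) and P14 replicate 1 for 23 (60.5%, against 32%).

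Most of the vesicle genes had their highest mean at P14. Together they took between 0.241% and 0.305% of the reads on genes at P1, 0.338% and 0.381% at P7, 0.629% and 0.937% at P14, and 0.447% and 0.526% at P28, with no overlap between the libraries of any 2 time points. The highest mean was at P14 for 26 of the 38 genes, at P28 for 6, at P7 for 4 and at P1 for 2. Over all genes tested, by comparison, 19.8% were highest at P14 and 31.1% at P28. Snap25, Syt11 and Vamp2 held the 3 highest places among the 38 per kilobase of exon at each time point, and Snap25 passed Syt11 between P7 and P14. In bulk samples, fewer cells of a type and less RNA per cell cannot be told apart, and this holds for every value below.

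**Figure D1:**
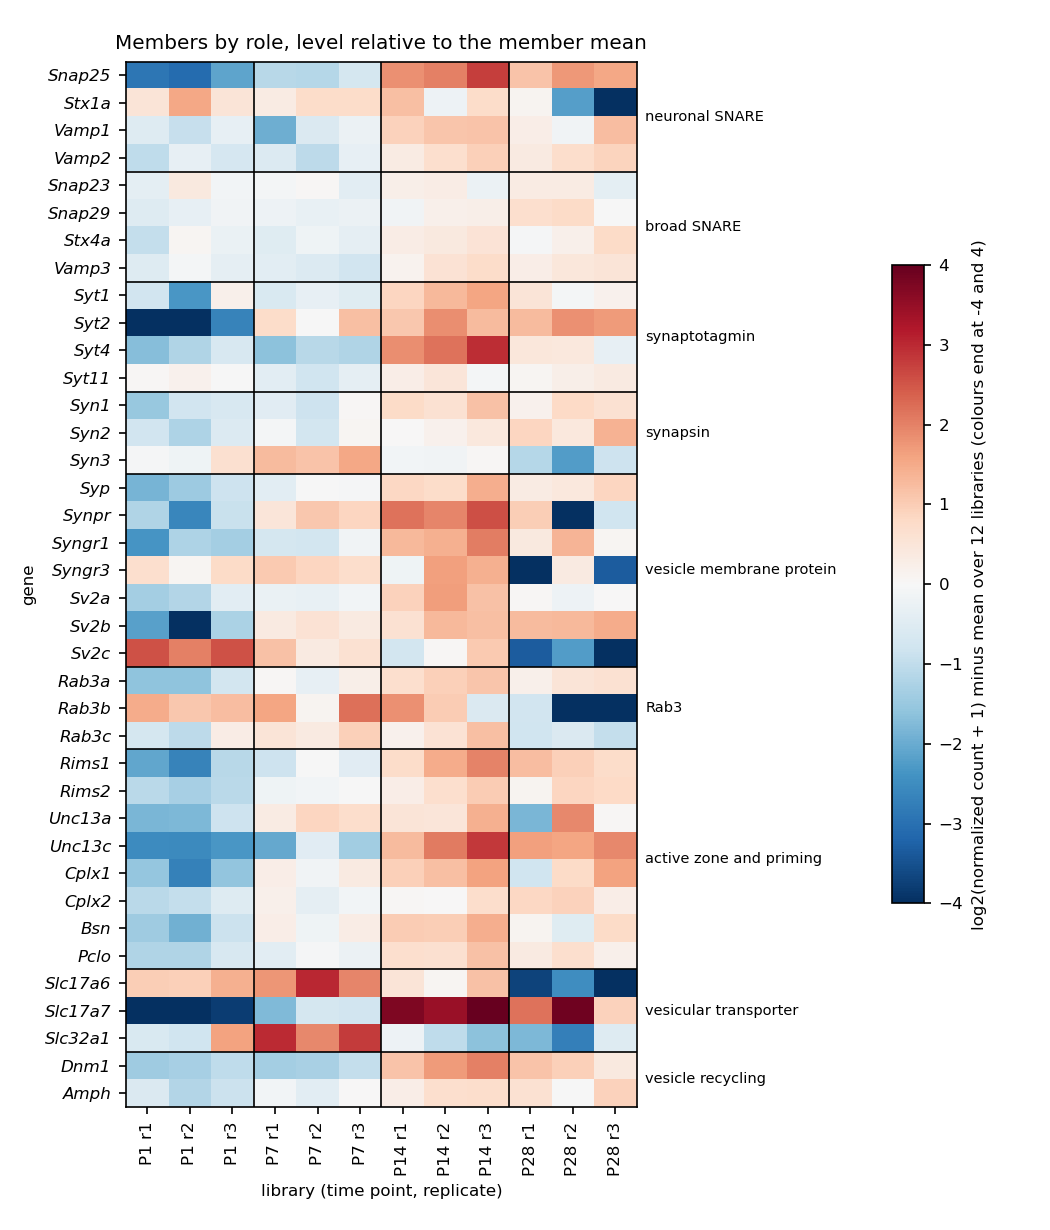
The 38 genes by role (rows) in the 12 libraries (columns), coloured by log2(normalized count + 1) minus the mean of the gene over the libraries, with colours ending at -4 and 4. Most rows turn from blue at P1 to red at P14, while Syn3, Slc17a6 and Slc32a1 are reddest at P7 and Sv2c at P1.

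Each step was tested with limma on log2(normalized count + 1) in a single fit of the 12 libraries over 15464 genes, and a gene was called where its Benjamini-Hochberg adjusted p was under 0.05. On this scale, the fold change of a gene with few reads comes out too small. An F test over the 4 time points called 36 of the 38 genes, and it called 43.8% of all genes tested. The exceptions were Snap23 (adjusted p 0.863) and Stx4a (adjusted p 0.079). With each library left out in turn, the F test called 31 to 35 of the 38.

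From P1 to P7, 12 of the 38 were called higher and 1 lower, where 3.47% of all genes tested were called higher and 4.24% lower. The median log2 fold change was 0.77 for the 38 genes and 0.04 for all genes tested. The 12 that rose were Snap25, Syt2, Syn3, Syp, Sv2b, Rab3a, Rims1, Rims2, Cplx1, Bsn, Pclo and Slc17a7, and Syt11 fell. The count of 12 was 7 without P1 replicate 1, 6 without P1 replicate 2 and 6 without P7 replicate 3. Over all genes tested, 536 were called higher, and 296, 318 and 276 in these fits with fewer libraries. The call of Syt11 was lost (0 called lower) without any of the 3 libraries of P1, any of the 3 of P7, or P14 replicate 1.

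From P7 to P14, 19 were called higher and 2 lower, where 10.8% of all genes tested were called higher and 10% lower. The median log2 fold change was 0.84, against -0.09 over all genes tested. SNAREs, synaptotagmins, active zone proteins and Dnm1 were among the genes that rose, and Syn3 and Slc32a1 fell. With each library left out in turn, 14 to 20 were called higher.

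From P14 to P28, 10 were called lower and 0 higher, where 8.76% of all genes tested were called lower and 5.68% higher. The 10 were Syt4, Syn3, Synpr, Syngr3, Sv2a, Sv2c, Rab3b, Rab3c, Bsn and Slc17a6. The median log2 fold change was -0.66, against -0.12 over all genes tested. At an unadjusted p under 0.05, limma had 1 of the 38 higher, Syn2 (p 0.033), and 0 were called higher by edgeR or DESeq2 after adjustment. The count of 10 was 6 without P14 replicate 2 and 5 without P14 replicate 3. Over all genes tested, 1354 were called lower, and 971 and 793 in these fits with fewer libraries.

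Between the ends of the series, P28 against P1, 23 of the 38 were called higher and 6 lower, with a median of 1.38 against -0.24 over all genes tested. Of all genes tested, 14.6% were called higher and 20% lower. The 23 that were higher ran from Vamp3 at 0.74 to Slc17a7 at 7.33, with Snap25 (4.17), Syt2 (5.25), Sv2b (4.14), Unc13c (4.17), Rims1 (2.92), Cplx1 (2.47), Syngr1 (2.26) and Dnm1 (2.08) at over 2 on the log2 scale. The others among them were Vamp2, Snap29, Syt4, Syn1, Syn2, Syp, Sv2a, Rab3a, Rims2, Cplx2, Bsn, Pclo and Amph. The 6 that were lower were Stx1a, Syn3, Syngr3, Sv2c, Rab3b and Slc17a6. At the threshold read from the study, an unadjusted p under 0.05 with a log2 fold change over 0.75 in size, 20 of the 38 were higher and 1 lower from P1 to P7 (6.94% and 7.27% of all genes tested), 20 and 3 from P7 to P14 (13.1% and 13.1%), 0 and 14 from P14 to P28 (7.83% and 16.3%), and 24 and 7 from P1 to P28 (15.6% and 23.8%). Steps that follow each other share the libraries of a time point, so their fold changes are not independent of each other.

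**Figure D2:**
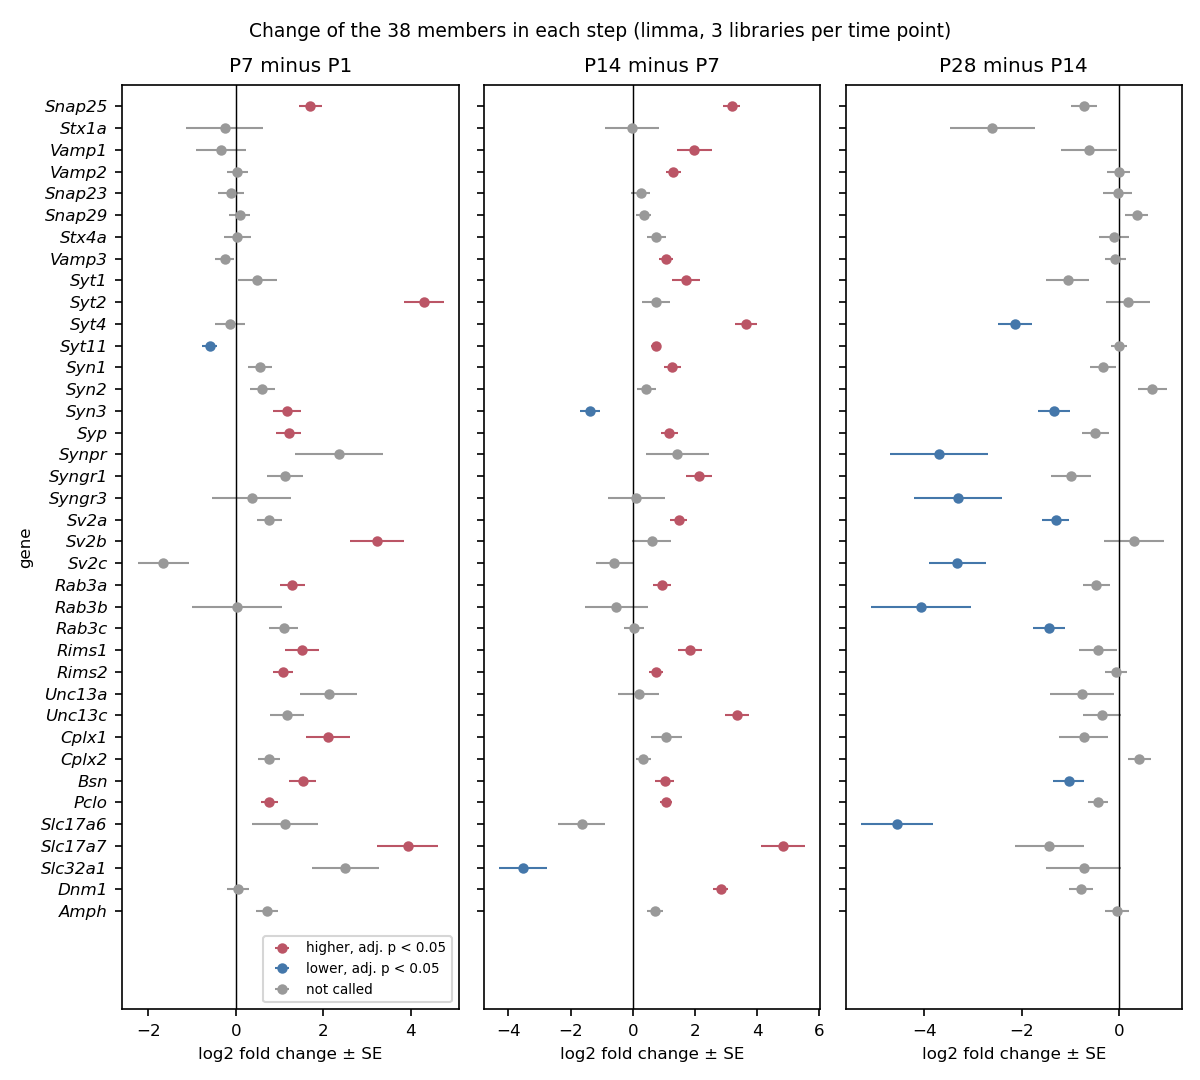
Log2 fold change with its standard error (limma, 3 libraries per time point) of each of the 38 genes in the 3 consecutive steps, red where called higher, blue where called lower and grey where not called. The called genes lie right of 0 in the first step except Syt11, right of 0 in the second except Syn3 and Slc32a1, and left of 0 in the third.

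Markers of neurons and of other cells moved over the same steps. The shares of all genes tested called higher and lower were 3.47% and 4.24% from P1 to P7, and 10.8% and 10% from P7 to P14. They were 5.68% and 8.76% from P14 to P28, and 14.6% and 20% for P28 against P1. Of 10 granule neuron markers, 8 were called higher from P1 to P7 (80%) and 5 from P7 to P14 (50%). From P14 to P28, 1 of these markers was called lower (10%, near the share of all genes). Their summed level was between 2354 and 5090 at P1, 13127 and 14215 at P7, 16884 and 30327 at P14, and 14297 and 16799 at P28. Gabra6, the receptor subunit that marks mature granule neurons, was at 0 in the 3 P1 libraries, at 12.7, 51 and 48.1 at P7, at 1433, 2196 and 3285 at P14, and at 1011, 800 and 872 at P28. P14 replicate 3 had the highest level of its time point for 9 of these 10 markers. Of 13 markers of neurons in general, 6 were called higher from P1 to P7, then 1 higher and 5 lower from P7 to P14, and 1 higher and 6 lower from P14 to P28. Their summed level was between 8689 and 16150 at P1, 22634 and 28157 at P7, 11796 and 16150 at P14, and 9519 and 10079 at P28. Map2 alone gave 5606, 5812 and 6305 of this sum in the P28 libraries. Of 11 markers of GABAergic interneurons, 2 were called higher at P7, then 2 higher and 6 lower at P14, and 1 lower at P28. Their summed level was between 870 and 2576 at P1, 3356 and 6488 at P7, 1047 and 1214 at P14, and 962 and 1673 at P28. Npy alone gave 509, 712 and 1189 of this sum in the P28 libraries. No marker of these 3 lists apart from Gabra6 was at 0 in all 3 libraries of a time point. Of 14 astrocyte markers, 2 were called higher and 8 lower at P7, then 12 higher at P14 and 9 higher at P28. Between P1 and P28, 12 of the 14 were called higher and 1, Aldh1l1, lower (-0.76, limma adjusted p 0.0286). Of 9 markers of oligodendrocytes, the myelin-forming cells, 8 were called higher at P7, 9 higher at P14 and 7 lower at P28. P14 replicate 3 was also highest of its time point for 10 of the 13 neuron markers, and lowest for 11 of the 14 astrocyte and 8 of the 9 oligodendrocyte markers. P1 replicate 3 was highest of its time point for 11 of the 13 neuron and 9 of the 11 interneuron markers, and lowest for 10 of the 14 astrocyte markers. The part of these cells in the changes of the vesicle genes was not tested.

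**Figure D3:**
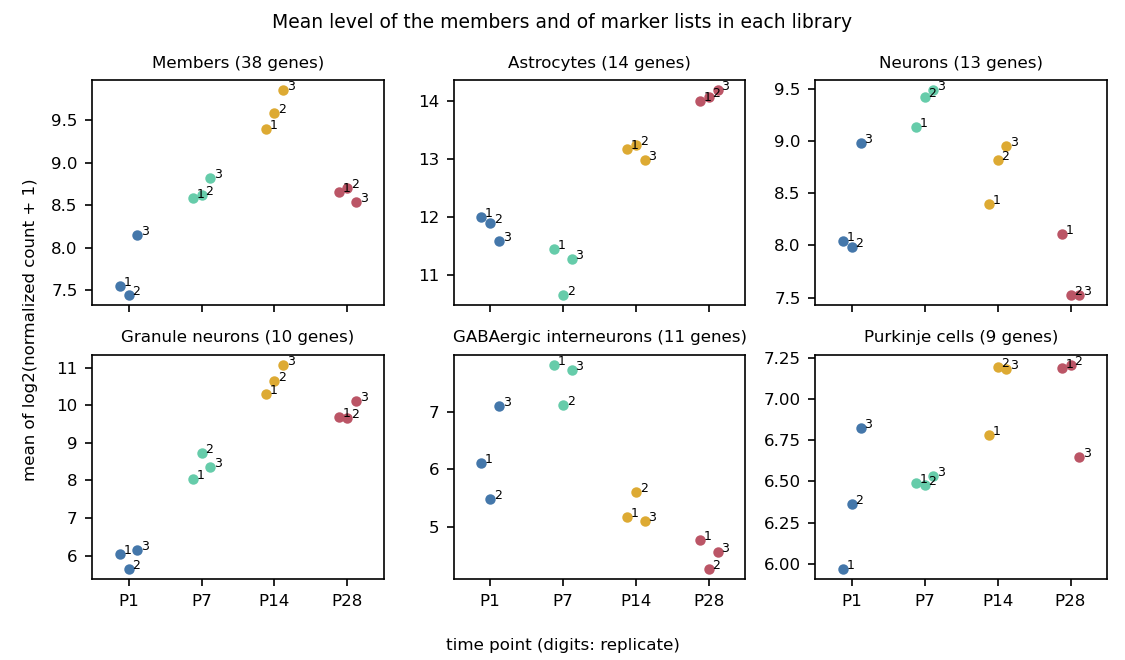
Mean of log2(normalized count + 1) over the 38 vesicle genes and over lists of cell type markers, by time point, with a point per library labelled by its replicate number. The vesicle genes and the granule neuron markers both have their highest points at P14 with replicate 3 on top, the astrocyte markers are highest at P28, and the markers of neurons and of GABAergic interneurons are highest at P7.

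Among the SNAREs, the neuronal Snap25 rose in both of the first steps and the broadly expressed Snap23 passed no test. Snap25, the plasma membrane SNARE of synapses (chr2:136713453-136782428, GRCm38), had 613, 539 and 1036 normalized counts at P1, 2105, 2033 and 2771 at P7, 15942, 18245 and 30596 at P14, and 10057, 14905 and 13292 at P28. No library of P7 overlapped with P1, none of P14 with P7, and the P28 libraries all lay below those of P14. On the log2 scale, the first step was a rise of 1.70 ± 0.27 (SE, limma adjusted p 0.00145), and the second a rise of 3.18 ± 0.27 (adjusted p 2.31e-06). From P14 to P28 the adjusted p was 0.089. Snap23, its counterpart in many tissues (chr2:120567671-120601255), lay between 251 and 439 in the 12 libraries.

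Vamp2, the main vesicle SNARE of the brain, had 687, 1110 and 867 normalized counts at P1, 959, 666 and 1120 at P7, 1765, 2237 and 2682 at P14, and 1798, 2283 and 2565 at P28. The libraries fell into a lower pair of time points and a higher pair without overlap. Vamp3, also called cellubrevin and found in most cells, had the same shape at a lower level, 369 to 597 through P7 and 696 to 1057 from P14. From P7 to P14, Vamp2 rose by 1.30 ± 0.24 (adjusted p 0.0015) and Vamp3 by 1.07 ± 0.22 (adjusted p 0.00265). Both were also higher at P28 than at P1, by 1.33 ± 0.24 for Vamp2 (adjusted p 0.00074) and by 0.74 ± 0.22 for Vamp3 (adjusted p 0.0158). The latter call was lost without P1 replicate 1 (adjusted p 0.0694) and with scaling by library totals (adjusted p 0.258), and its adjusted p ranged from 0.00497 to 0.258 over the alternatives.

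Vamp1, another neuronal vesicle SNARE, was low, at 46.8, 35 and 53.8 at P1, 16.7, 44.5 and 56.6 at P7, 128, 146 and 150 at P14, and 80.4, 61.3 and 158 at P28. Its rise from P7 to P14, 1.98 ± 0.57 (adjusted p 0.0231), was lost without P7 replicate 1, the lowest library (adjusted p 0.126), or without P14 replicate 1, 2 or 3 (0.0518, 0.0655 and 0.0627). Stx1a, the neuronal syntaxin, was between 31.7 and 109 through P14 and then at 39.5, 7.08 and 1.35 at P28. No consecutive step was called for Stx1a, and P28 was lower than P1 by -2.89 ± 0.87 (adjusted p 0.0195). That call was lost without P1 replicate 2 (0.076) or P28 replicate 3 (0.0566), in both edgeR fits (0.0795 and 0.0749) and with only the time points compared (0.0925), and its adjusted p ranged from 0.000995 to 0.0925 over the alternatives. The value itself was -1.91 without P28 replicate 3. Stx4a, a syntaxin of the plasma membrane outside synapses, ranged from 159 to 526 and was called nowhere. Snap29, a SNARE of endosomal and autophagic fusion, ranged from 370 to 902 and was higher at P28 than at P1 by 0.81 ± 0.24 (adjusted p 0.0172). The call was lost without P1 replicate 1 (0.0713) or P28 replicate 2 (0.0524), with library totals (0.242) and with only the time points compared (0.0731), and over the alternatives its adjusted p ranged from 0.00225 to 0.242.

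The 4 synaptotagmins each followed a course of their own. Syt1, the calcium sensor of fast release in forebrain neurons, was widely spread at P1, with 477, 160 and 931 normalized counts, and then had 529, 644 and 583 at P7, 1478, 1996 and 2405 at P14, and 1150, 761 and 909 at P28. The P14 libraries lay above all others. Syt2, the fast sensor of hindbrain and cerebellar synapses, was nearly undetected at P1, with 10.5, 9.29 and 28.8, and had 317, 188 and 440 at P7, 400, 694 and 458 at P14, and 460, 673 and 617 at P28. Every library from P7 on was thus above every P1 library. The rise of Syt2 over the first week was 4.30 ± 0.45 (adjusted p 7.46e-05), and no later step was called. Syt1 rose by 1.72 ± 0.45 from P7 to P14 (adjusted p 0.0128), which was lost without P14 replicate 3 (0.0578) and ranged from 0.000163 to 0.0578 over the alternatives.

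Syt4, a synaptotagmin of dense-core and secretory vesicles that is also found in astrocytes, made a peak at P14. It had 121, 171 and 253 normalized counts at P1, 126, 183 and 172 at P7, 1429, 1777 and 3061 at P14, and 545, 533 and 315 at P28. The P28 libraries lay between those of P14 and those of the first week, overlapping with neither. Syt4 rose by 3.64 ± 0.35 from P7 to P14 (adjusted p 6.1e-06) and fell by 2.13 ± 0.35 to P28 on the log2 scale (adjusted p 0.00182). Of its exonic bases, 14.5% are shared with Gm26658, and how shared reads were counted is not stated. Syt11, a member that does not bind calcium and is broadly expressed in glia and neurons, was the most abundant of the 38 per kilobase at P1 and P7. It had 10768, 11882 and 10399 at P1, 7757, 6049 and 8206 at P7, 12688, 14512 and 9982 at P14, and 11085, 12344 and 13383 at P28. The P7 libraries were the lowest without overlap. Its fall to P7, -0.60 ± 0.16 (adjusted p 0.0399), was lost in the fits without 7 of the 12 libraries, as given above (0.0572 to 0.165). The call was also lost with no filter (0.0518), in both edgeR fits (0.0623 and 0.0532) and with the replicate block (0.0616). The fall was under the fold threshold of 0.75 read from the study, and its adjusted p ranged from 0.0182 to 0.165 over the alternatives. The rise that followed, 0.75 ± 0.16 (adjusted p 0.00453), kept its call in each of these.

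The synapsins coat the vesicle and tether it to actin. Syn1, the highest of them per kilobase at each time point, had 453, 750 and 819 normalized counts at P1, 937, 721 and 1329 at P7, 2201, 1979 and 2893 at P14, and 1447, 2223 and 1977 at P28. P1 and P7 overlapped, and both lay below P14 and P28. Syn1 rose by 1.27 ± 0.27 from P7 to P14 (adjusted p 0.0039). Syn2 lay between 231 and 376 at P1, 330 and 581 at P7, 548 and 728 at P14, and 737 and 1436 at P28. No step of Syn2 was called, and P28 was higher than P1 by 1.74 ± 0.29 (adjusted p 0.00042). Syn3, the form found early in development and in immature neurons, went the other way after the first week. It had 485, 445 and 782 at P1, 1204, 1090 and 1453 at P7, 466, 453 and 510 at P14, and 225, 106 and 277 at P28. The P7 libraries were the highest and the P28 libraries the lowest, both without overlap. Its rise to P7 was 1.16 ± 0.32 (adjusted p 0.0411), followed by falls of -1.38 ± 0.32 (adjusted p 0.00709) and -1.34 ± 0.32 (adjusted p 0.0149). The first of these calls was lost without P1 replicate 1 or 2 (0.154 and 0.167), P7 replicate 1, 2 or 3 (0.108, 0.0891 and 0.17) or P14 replicate 1, 2 or 3 (0.0588, 0.0597 and 0.056), and with no filter (0.052). The last was lost without P14 replicate 3 (0.0547) and with only the time points compared (0.113). Over the alternatives, the adjusted p ranged from 0.00668 to 0.17 for the rise to P7 and from 0.00296 to 0.113 for the last fall.

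The promoter of Syn1 is shown for its matches to the RE1 motif and to the cyclic AMP response element. Among the 31 genes whose promoters could be searched, no other had a match to either. RE1 is known as the binding motif of the repressor REST at neuronal genes, and the left part of it, TTCAGCACC, was found on either strand in 0.301% of 32851 RefSeq promoters. The cyclic AMP response element, TGACGTCA, reads the same on both strands and was found in 1.55%. Promoters were available for 31 of the 38 genes (40 promoters), and the 250 bases before each start were searched. The sequence lies at chrX:20920919-20921168 on the minus strand (RefSeq, GRCm38.p6), with the RE1 part and the response element in capitals, starting 232 and 159 bases before the start of the transcript and not overlapping. A match is a description of the letters and not of a site in use.
Syn1 promoter: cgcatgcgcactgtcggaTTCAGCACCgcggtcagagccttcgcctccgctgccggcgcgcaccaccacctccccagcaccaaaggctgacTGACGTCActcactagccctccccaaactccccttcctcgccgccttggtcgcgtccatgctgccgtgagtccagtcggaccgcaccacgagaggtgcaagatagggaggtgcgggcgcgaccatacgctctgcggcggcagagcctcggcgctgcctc

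Among the proteins of the vesicle membrane, Syp, Syngr1, Sv2a and Sv2b were higher late than early, and Sv2c was lower. Syp, or synaptophysin, the standard marker of synaptic vesicles, had 164, 214 and 335 normalized counts at P1, 439, 578 and 574 at P7, 1055, 980 and 1636 at P14, and 737, 789 and 1067 at P28. P1, P7 and the later libraries did not overlap. Syp rose by 1.21 ± 0.29 in the first step (adjusted p 0.018) and by 1.18 ± 0.29 in the second (adjusted p 0.00875). The first of these was lost without P1 replicate 1 or 2 (0.0954 and 0.0657) or P7 replicate 2 or 3 (0.0772 and 0.079), and ranged from 0.00331 to 0.0954 over the alternatives. Gm14703 overlaps 33.8% of the exonic bases of Syp, and reads of the overlapping pair could not be told apart if strand was not used. Syngr1, a synaptogyrin of the same family of tetraspan vesicle proteins, had 39.4, 86.5 and 79.5 at P1, 125, 123 and 185 at P7, 509, 555 and 851 at P14, and 269, 531 and 218 at P28. It rose by 2.13 ± 0.42 from P7 to P14 (adjusted p 0.00211), with no overlap between those libraries.

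Sv2a, Sv2b and Sv2c are related glycoproteins of secretory vesicles, and they parted over time. Sv2b had 258, 36.4 and 485 normalized counts at P1, 1484, 1750 and 1480 at P7, 1768, 2849 and 2664 at P14, and 2813, 2840 and 3233 at P28. Sv2a had 164, 186 and 320 at P1, 350, 348 and 398 at P7, 807, 1344 and 967 at P14, and 440, 368 and 430 at P28. Sv2c had 487, 333 and 485 at P1, 187, 106 and 126 at P7, 48.7, 84.6 and 173 at P14, and 7.31, 16.5 and 4.06 at P28. Sv2b was thus low at P1 alone, Sv2a was highest at P14 without overlap, and Sv2c was highest at P1 and lowest at P28 without overlap. Sv2b rose by 3.22 ± 0.62 to P7 (adjusted p 0.00481), a value that ranged from 2.14 to 3.99 with a library left out and was smallest without P1 replicate 2, the lowest library. Sv2a rose by 1.48 ± 0.28 from P7 to P14 (adjusted p 0.00164) and fell to P28, by -1.30 ± 0.28 (adjusted p 0.00786). P28 was still higher than P1 for Sv2a, by 0.94 ± 0.28 (adjusted p 0.0176), a call that was lost without P1 replicate 1 or 2 (0.0834 and 0.0582), with library totals (0.164) and with only the time points compared (0.0884), in a range of 0.00487 to 0.164. Sv2c fell from P14 to P28, by -3.32 ± 0.59 (adjusted p 0.00281, or 0.0875 with only the time points compared, which was the highest over its alternatives, the lowest being 4.72e-07). From P1 to P28 the fall of Sv2c was -5.57 ± 0.59 (adjusted p 6.89e-06).

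Synpr, or synaptoporin, and Syngr3 had single P28 libraries far apart. Synpr had 33.8, 12.1 and 42.4 normalized counts at P1, 110, 169 and 143 at P7, 360, 306 and 475 at P14, and 158, 2.36 and 44.6 at P28. Syngr3 had 100, 66.4 and 107 at P1, 131, 114 and 102 at P7, 56.1, 200 and 170 at P14, and 2.92, 80.2 and 5.41 at P28. The P28 libraries of Synpr lay below those of P14, and those of Syngr3 overlapped with P14 in replicate 2. Synpr fell by -3.69 ± 1.01 (adjusted p 0.0258) and Syngr3 by -3.30 ± 0.91 (adjusted p 0.0264) from P14 to P28. The call of Synpr was lost without P14 replicate 1, 2 or 3 (0.0704, 0.0593 and 0.0895) and that of Syngr3 without P14 replicate 2 or 3 (0.0918 and 0.0935) or P28 replicate 1 or 3 (0.0662 and 0.0635). Both were also lost in the 2 edgeR fits (0.0674 and 0.0675 for Synpr, 0.11 and 0.111 for Syngr3) and with only the time points compared (0.158 and 0.197). The fall of Synpr was -2.14 without P28 replicate 2, and the adjusted p ranged from 0.00349 to 0.158 for Synpr and from 0.000759 to 0.197 for Syngr3 over the alternatives. P28 against P1 was also called for Syngr3, at -2.83 ± 0.91 (adjusted p 0.0261), and was lost without P1 replicate 1 or 3 (0.0771 and 0.0786) or P28 replicate 1 or 3 (0.0891 and 0.0723), in both edgeR fits (0.189 and 0.18), in DESeq2 (0.124) and with only the time points compared (0.111), with a range of 0.00021 to 0.189.

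The Rab3 proteins are small GTPases of the vesicle surface that recruit Rims proteins. Rab3a, the main form in brain, had 136, 136 and 251 normalized counts at P1, 428, 331 and 488 at P7, 671, 804 and 895 at P14, and 479, 600 and 641 at P28. P1 lay below P7 and P7 below P14 without overlap. Rab3a rose by 1.30 ± 0.28 (adjusted p 0.0102) and then by 0.93 ± 0.28 (adjusted p 0.0281). The call of the first step was lost without P1 replicate 1 or 2 (0.0553 and 0.0503) or P7 replicate 3 (0.0621), with a range of 0.000527 to 0.0621 over the alternatives. That of the second was lost without P7 replicate 1 or 2 (0.0725 and 0.122) or P14 replicate 2 or 3 (0.08 and 0.0959) and with library totals (0.0969), with a range of 0.0064 to 0.122. Rab3c had 464, 361 and 934 at P1, 1082, 971 and 1450 at P7, 858, 1129 and 1728 at P14, and 431, 502 and 385 at P28. Its P28 libraries lay below those of P7 and P14 and among those of P1. Rab3c fell by -1.44 ± 0.33 from P14 to P28 (adjusted p 0.011), which was lost without P14 replicate 3 (0.058) and ranged from 0.000588 to 0.058.

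Rab3b was low and fell out at the end. It had 66.4, 49.3 and 56 normalized counts at P1, 70.1, 24.9 and 109 at P7, 84.7, 47.6 and 15.2 at P14, and 13.2, 0 and 0 at P28. The highest P28 library was just below the lowest P14 library, and a count of 0 allows up to 3 reads, or 3.54 normalized counts in P28 replicate 2 and 4.06 in replicate 3, by counting error alone. Rab3b fell by -4.07 ± 1.02 from P14 to P28 (adjusted p 0.0177), a value that depends on the pseudocount of 1. The call was lost without P14 replicate 1 or 2 (0.0731 and 0.0537), in both edgeR fits (0.0662) and with only the time points compared (0.127), and ranged from 0.00162 to 0.127. Against P1, the fall was -4.58 ± 1.02 (adjusted p 0.00336).

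Of the 8 active zone and priming genes, 5 were called higher from P1 to P7 and 5 from P7 to P14, where 3.47% and 10.8% of all genes tested were. Their median log2 fold changes were 1.34 and 1.05. Unc13a and Cplx2 were called in neither step, Unc13c not in the first and Cplx1 not in the second. Rims1 and Rims2 are scaffolds that link Rab3, calcium channels and priming factors. Rims1 had 89.8, 59.3 and 176 normalized counts at P1, 212, 377 and 279 at P7, 631, 1075 and 1525 at P14, and 894, 742 and 636 at P28. Rims2 had 618, 522 and 611 at P1, 1166, 1213 and 1295 at P7, 1557, 2070 and 2652 at P14, and 1393, 2386 and 2285 at P28. For both genes, P1 lay below P7 and P7 below P14 without overlap, and P28 overlapped with P14. Rims1 rose by 1.51 ± 0.40 (adjusted p 0.0315) and 1.84 ± 0.40 (adjusted p 0.00413), and Rims2 by 1.07 ± 0.23 (adjusted p 0.00943) and 0.74 ± 0.23 (adjusted p 0.0323). The first step of Rims1 lost its call without P1 replicate 1 or 2 (0.108 and 0.147), P7 replicate 2 or 3 (0.145 and 0.0953) or P14 replicate 2 (0.0507), in a range of 0.00785 to 0.147. The second step of Rims2 lost it without P7 replicate 1, 2 or 3 (0.104, 0.0822 and 0.0716) or P14 replicate 2 or 3 (0.0888 and 0.143) and with library totals (0.132), in a range of 0.0112 to 0.143.

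Bsn (bassoon) and Pclo (piccolo) are the giant scaffold proteins of the active zone. Bsn had 327, 231 and 479 normalized counts at P1, 1054, 777 and 1063 at P7, 1787, 1735 and 2376 at P14, and 935, 622 and 1473 at P28. Pclo had 1563, 1560 and 2289 at P1, 2651, 3446 and 3022 at P7, 5686, 5556 and 8057 at P14, and 4557, 5720 and 4057 at P28. Both climbed from P1 to P7 and from P7 to P14 without overlap, and the P28 libraries of Bsn spanned those of P7. Bsn rose by 1.53 ± 0.31 (adjusted p 0.00703) and 1.03 ± 0.31 (adjusted p 0.0298) and then fell by -1.03 ± 0.31 (adjusted p 0.0394). Pclo rose by 0.77 ± 0.20 (adjusted p 0.0311) and 1.07 ± 0.20 (adjusted p 0.00165). The rise of Bsn to P14 was lost without any of the libraries of P7 (0.0603, 0.115 and 0.0593) or of P14 (0.0599, 0.0588 and 0.115) and with library totals (0.0878), in a range of 0.00228 to 0.115. Its fall to P28 was lost without P1 replicate 1 (0.054), P7 replicate 1 or 3 (0.0548 and 0.0545), P14 replicate 1, 2 or 3 (0.0789, 0.0702 and 0.143) or P28 replicate 1 or 2 (0.0653 and 0.114), with no filter (0.0543), in both edgeR fits (0.0544 and 0.0556) and with only the time points compared (0.114), in a range of 0.00793 to 0.143. The first step of Pclo was lost without P1 replicate 1 or 2 (0.134 and 0.125) or P7 replicate 2 or 3 (0.129 and 0.098), in a range of 0.0127 to 0.134.

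Unc13c (Munc13-3), the priming factor of cerebellar granule cell synapses, rose the most of the group from P7 to P14. It had 122, 119 and 138 normalized counts at P1, 168, 513 and 268 at P7, 1676, 2996 and 4958 at P14, and 2192, 2082 and 2641 at P28. The P14 and P28 libraries lay far above those of the first week. Unc13c rose by 3.35 ± 0.38 from P7 to P14 (adjusted p 2.71e-05). Unc13a (Munc13-1), the widespread priming factor, had 138, 141 and 279 at P1, 623, 908 and 805 at P7, 718, 694 and 1338 at P14, and 140, 1888 and 515 at P28. Its P28 libraries spanned almost the whole range of the gene, and none of the 3 steps and of P28 against P1 was called, while P14 against P1 was not tested. Cplx1, the complexin of many adult neurons, had 96, 42.9 and 95.4 at P1, 344, 260 and 367 at P7, 549, 654 and 870 at P14, and 162, 489 and 872 at P28. P1 lay below P7 without overlap. Cplx1 rose by 2.11 ± 0.50 to P7 (adjusted p 0.018), which was lost without P1 replicate 2 (0.0914) or P7 replicate 1 or 3 (0.0623 and 0.0757), in a range of 0.0006 to 0.0914. Cplx2 lay between 679 and 1009 at P1, 1131 and 1653 at P7, 1460 and 2324 at P14, and 1742 and 2759 at P28, with no step called and a difference of 1.53 ± 0.24 between P28 and P1 (adjusted p 0.000254).

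The transporters that fill vesicles with transmitter changed in opposite directions. Slc17a7 (VGLUT1, chr7:45163949-45176142), the glutamate transporter of mature granule cells and of cortex, had 0.615, 2.14 and 6.82 normalized counts at P1, 31.1, 66.7 and 62.8 at P7, 1453, 1188 and 1857 at P14, and 492, 1603 and 207 at P28. Slc17a6 (VGLUT2, chr7:51622006-51671119), the glutamate transporter of early granule cells and of brainstem, had 102, 99.3 and 136 at P1, 176, 418 and 197 at P7, 73.1, 54 and 115 at P14, and 2.92, 8.26 and 0 at P28. Slc32a1 (VGAT), the transporter for GABA and glycine, had 34.5, 30 and 163 at P1, 428, 202 and 372 at P7, 45.5, 25.4 and 16.3 at P14, and 14.6, 7.08 and 36.5 at P28. Slc17a7 climbed from almost nothing, Slc17a6 almost disappeared at P28, and Slc32a1 was highest at P7, each without overlap of those groups with the time points before. Slc17a7 rose by 3.92 ± 0.71 (adjusted p 0.00331) and 4.83 ± 0.71 (adjusted p 0.000217), and its 1, 3 and 9 reads at P1 leave the first value dependent on the pseudocount. Slc17a6 fell by -4.56 ± 0.75 from P14 to P28 (adjusted p 0.00182, or 0.0545 with only the time points compared, the highest over its alternatives, with 1.03e-07 the lowest). Slc32a1 fell by -3.53 ± 0.77 from P7 to P14 (adjusted p 0.00436). Of the exonic bases of Slc32a1, 24.9% are shared with Gm14205. Per kilobase of exon, the mean level of Slc17a7 against Slc17a6 was 1.07 against 27.2 at P1, 17.9 against 63.7 at P7, 501 against 19.5 at P14 and 257 against 0.901 at P28. Beside the fall of Slc32a1, the GABA-synthesising enzymes Gad1 and Gad2 among the interneuron markers fell over the same step, by -2.75 (adjusted p 0.0089) and -2.40 (adjusted p 0.00286). Other interneuron markers were called the other way, with rises of 4.51 for the neuropeptide Npy (adjusted p 9.1e-06) and 3.01 for the calcium buffer Pvalb (adjusted p 0.00495). Gabra6 rose over the same step as Slc17a7, as given above. Of the 10 granule neuron markers, 5 were called higher over that step and 0 lower. Neurod2, Pax6 and Zic1 went the other way without a call, by -1.32, -0.95 and -0.47 on the log2 scale.

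**Figure D4:**
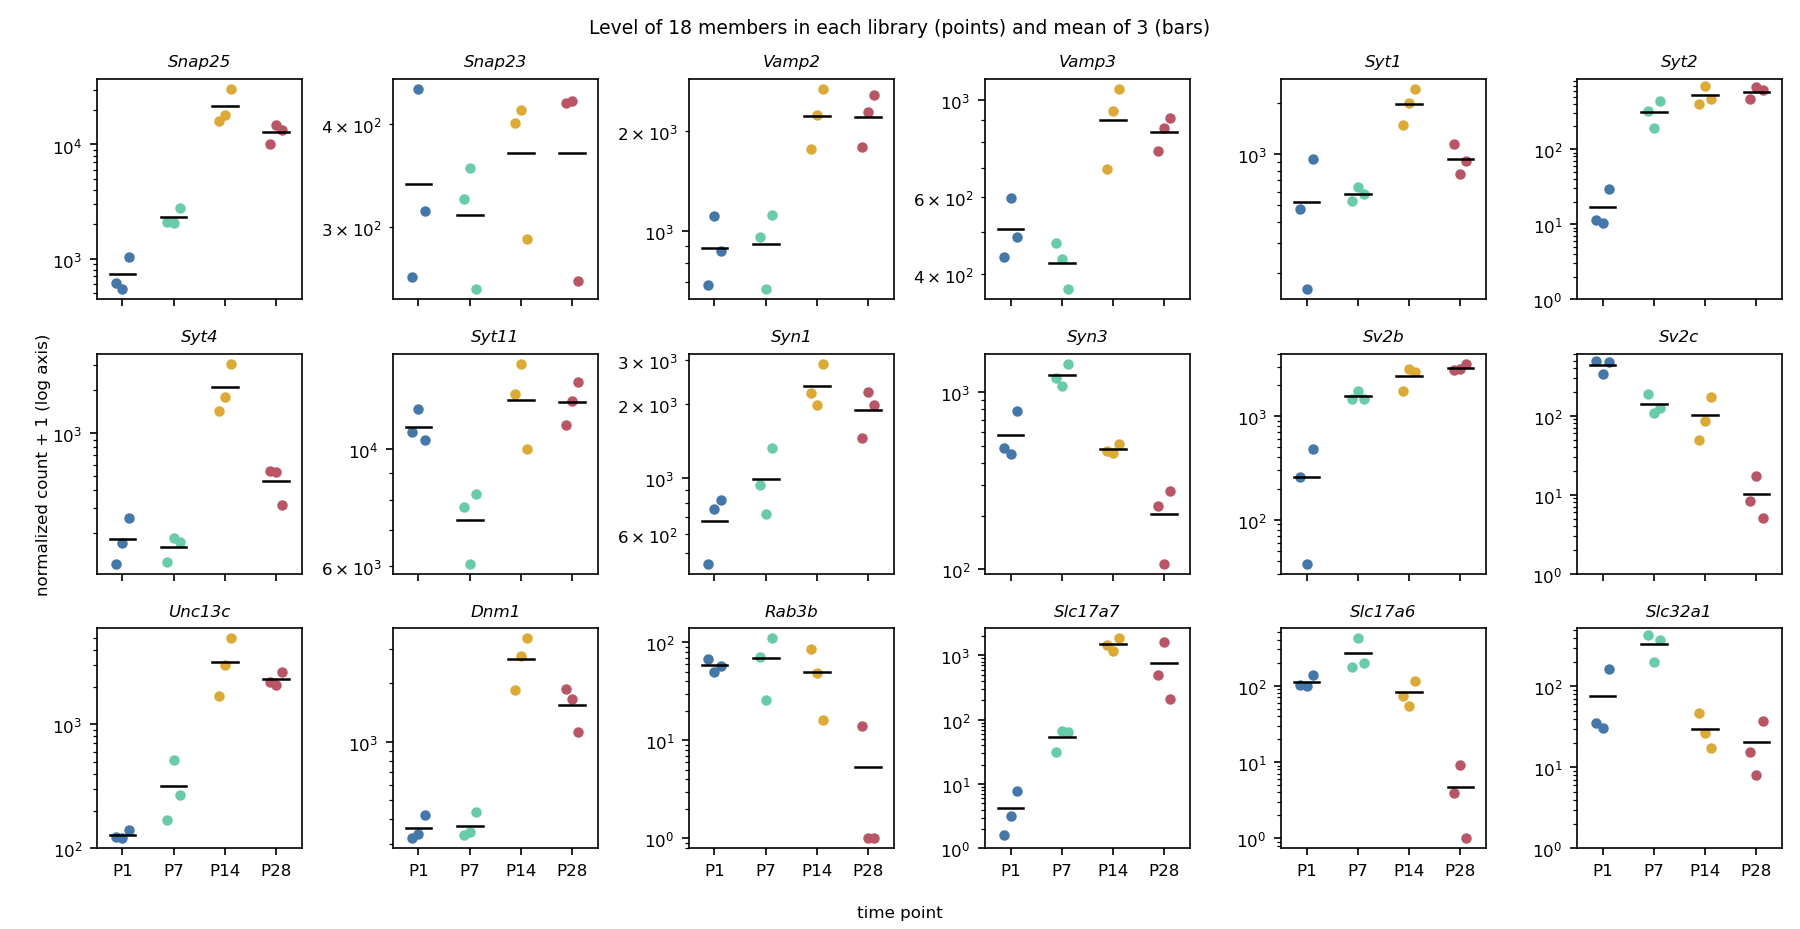
Normalized count + 1 on a log axis in each library (points) for 18 of the genes at the 4 time points, with the mean of 3 libraries as a bar. Slc17a7 rises from at most 6.82 at P1 to at least 1188 at P14, while Slc17a6 and Sv2c drop at P28, and Snap23 stays within 251 to 439.

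The promoters of the 2 glutamate transporters are printed because these genes exchanged their order during the series. Both are 250 bases before the start (RefSeq, GRCm38.p6, plus strand), at chr7:45163671-45163920 for Slc17a7 and chr7:51621580-51621829 for Slc17a6. Capitals mark the GC box, GGGCGGGG, which in Slc17a7 was matched on the other strand as CCCCGCCC in 2 overlapping copies starting 20 and 15 bases before the start. No GC box was matched in this window of Slc17a6. The motif was present on either strand in 16.1% of all promoters. Counted by gene, 14 of the 31 genes had it in any of their promoters (40 promoters in all). The first is a share of promoters and the second a count of genes, so they cannot be compared directly. None of the 3 motifs searched overlapped another here.
Slc17a7 promoter: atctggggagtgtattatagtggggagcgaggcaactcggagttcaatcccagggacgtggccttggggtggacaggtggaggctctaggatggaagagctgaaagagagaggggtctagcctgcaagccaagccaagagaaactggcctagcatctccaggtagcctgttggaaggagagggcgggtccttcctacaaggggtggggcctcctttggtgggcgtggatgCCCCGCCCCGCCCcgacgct
Slc17a6 promoter: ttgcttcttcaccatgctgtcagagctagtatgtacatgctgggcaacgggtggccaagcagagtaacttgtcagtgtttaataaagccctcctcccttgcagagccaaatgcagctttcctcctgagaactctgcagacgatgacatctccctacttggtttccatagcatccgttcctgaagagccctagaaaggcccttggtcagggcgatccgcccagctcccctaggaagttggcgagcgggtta

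Dnm1 and Amph act in the retrieval of vesicles after fusion. Dnm1 (dynamin 1), the neuronal GTPase that pinches off endocytic vesicles, had 318, 336 and 421 normalized counts at P1, 330, 343 and 435 at P7, 1848, 2768 and 3402 at P14, and 1860, 1648 and 1120 at P28. The first 2 time points were nearly the same, and every later library was above them. Dnm1 rose by 2.82 ± 0.25 from P7 to P14 (adjusted p 3.7e-06), and the step to P28 had an adjusted p of 0.0536. Amph (amphiphysin), which recruits dynamin, lay between 361 and 548 at P1, 614 and 838 at P7, 980 and 1343 at P14, and 817 and 1547 at P28. No step of Amph was called, and P28 was higher than P1 by 1.38 ± 0.25 (adjusted p 0.000768).

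Whether related genes changed unequally was tested on the log2 ratio of their values within each library, in which the size factor cancels apart from the pseudocount, for 10 pairs with an exact permutation test of the F statistic over all 369600 assignments of the libraries to the time points (adjusted over the 10 pairs). The ratio of Slc17a7 to Slc17a6 went from -5.04 ± 0.93 (SD) at P1 to -2.24 ± 0.53 at P7, 4.24 ± 0.22 at P14 and 7.37 ± 0.37 at P28 (p 6.49e-05, the smallest possible, adjusted p 0.000325). It rose at every time point without overlap. Its size depends on the pseudocount at P1, with 1, 3 and 9 reads of Slc17a7, and at P28, with 2, 7 and 0 reads of Slc17a6. Slc17a7 itself was not called from P14 to P28, at -1.43. The ratio of Snap25 to Snap23 went from 1.09 ± 0.73 to 2.89 ± 0.50, 5.83 ± 0.77 and 5.13 ± 0.56 (adjusted p 0.000866). That of Sv2a to Sv2b was 0.36 ± 1.70 at P1, where replicate 2 stood at 2.32 and the others near -0.6, and then -2.10 ± 0.22, -1.23 ± 0.21 and -2.84 ± 0.15 (adjusted p 0.000325). Syt1 to Syt2 dropped from 4.77 ± 0.73 to 0.97 ± 0.71, 1.93 ± 0.44 and 0.68 ± 0.58 (adjusted p 0.00584). These 4 ratios changed, and kept their calls with each library left out.

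The ratios of 3 further pairs passed narrowly. Stx1a to Stx4a went from -1.81 ± 0.41 to -2.10 ± 0.14, -2.88 ± 0.74 and -5.38 ± 2.46 (adjusted p 0.0416), Syt1 to Syt11 from -4.73 ± 1.38 to -3.64 ± 0.35, -2.67 ± 0.55 and -3.72 ± 0.40 (adjusted p 0.0471), and Rims1 to Rims2 from -2.56 ± 0.69 to -2.12 ± 0.39, -1.01 ± 0.26 and -1.39 ± 0.66 (adjusted p 0.0471). Their adjusted p with a library left out ranged from 0.00325 to 0.0832, 0.00179 to 0.177 and 0.0148 to 0.139. The call of Stx1a to Stx4a was lost except without P14 replicate 2, P28 replicate 1 or P28 replicate 2, that of Syt1 to Syt11 except without P1 replicate 3, and that of Rims1 to Rims2 except without P1 replicate 3 or P28 replicate 1. With a pseudocount of 10, Syt1 to Syt11 and Rims1 to Rims2 had an adjusted p of 0.0535 and 0.0563, and with the replicate block 0.124 and 0.129. Vamp2 to Vamp3 (adjusted p 0.11), Vamp1 to Vamp2 (0.595) and Cplx1 to Cplx2 (0.0971) did not pass. Vamp2 to Vamp3 passed without P7 replicate 3 (0.0158), and Cplx1 to Cplx2 without P28 replicate 1 (0.0175) or replicate 3 (0.0234). In log2 units, Vamp2 to Vamp3 had means of 0.79, 1.08, 1.31 and 1.38 from P1 to P28, and Vamp1 to Vamp2 had -4.26, -4.64, -3.95 and -4.56.

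**Figure D5:**
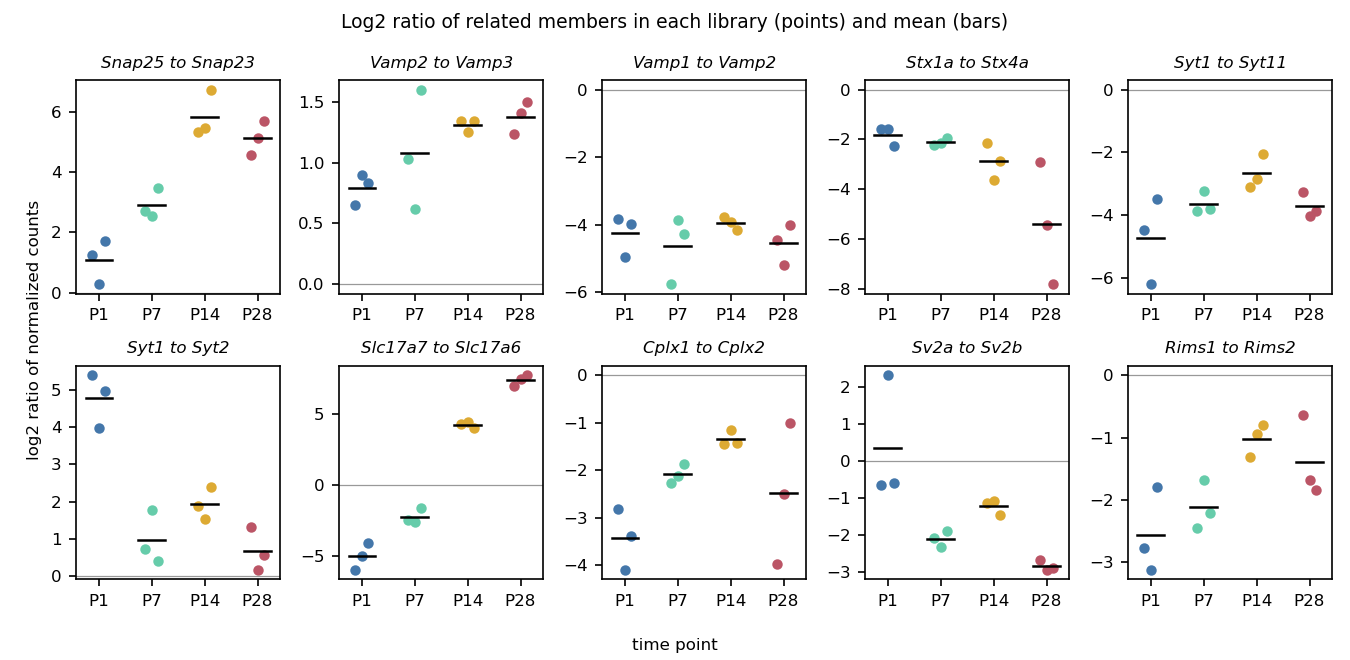
Log2 ratio of the normalized counts (each + 1) of 10 pairs of related genes in each library (points) with the mean of 3 libraries (bars), by time point, with a grey line at 0. Slc17a7 to Slc17a6 rises from -5.04 to 7.37 and crosses 0 between P7 and P14, and Vamp1 to Vamp2 shows no such trend. The ends of Slc17a7 to Slc17a6 rest on few reads, of Slc17a7 at P1 and of Slc17a6 at P28.

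Beyond the 38, a wider list of 132 genes of exocytosis and vesicle recycling was read, of which 131 were in the table and 122 were tested. In the 3 steps, 9, 26 and 5 of these were called higher, and 2, 7 and 18 were called lower. Their median log2 fold changes were 0.05, 0.26 and -0.27. By share, 7.38%, 21.3% and 4.1% were called higher in the 3 steps, against 3.47%, 10.8% and 5.68% of all genes tested. The shares called lower were 1.64%, 5.74% and 14.8%, against 4.24%, 10% and 8.76%. Of the 38 vesicle genes, 50% were called higher from P7 to P14. Of the wider list, 35.2% had their highest mean at P14.

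Among 30 SNAREs and their regulators, 2 were called higher from P1 to P7, 6 higher to P14 (20%, against the 10.8% of all genes), and 3 higher and 5 lower to P28 (10% and 16.7%, against 5.68% and 8.76%). Of 21 further synaptotagmins and calcium sensors, 1 was called higher and 1 lower in the first step, 7 higher to P14 (33.3%), and 1 higher and 3 lower to P28 (14.3% lower). Of 28 endocytosis genes, 2 were called higher and 1 lower in the first step, 6 higher to P14 (21.4%), and 1 higher and 2 lower to P28. Of 19 further active zone and priming genes, 4 were called higher from P1 to P7 (21.1%, against 3.47%), then 2 higher and 4 lower to P14 (10.5% and 21.1%, against 10.8% and 10%), and 7 lower to P28 (36.8%, against 8.76%). Of 24 further vesicle proteins, Rabs and transporters, limma called 0 in the first step (1 higher and 2 lower at an unadjusted p under 0.05), 5 higher and 3 lower from P7 to P14 (20.8% and 12.5%), and 1 lower to P28 (4.17%).

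The wider genes with the largest called changes were named by a rule of size. Stxbp5l (tomosyn-2), an inhibitor of SNARE assembly, had 126, 84.3 and 251 normalized counts at P1 and 815, 1191 and 908 at P7, and rose by 2.78 (adjusted p 0.000341). Cadps2, a priming factor for dense-core vesicles that is abundant in granule cells, had 193, 236 and 248 at P1 and 682, 2347 and 1041 at P7, and rose by 2.40 (adjusted p 0.00259). Lin7a, a presynaptic scaffold protein, had 111, 204 and 219 at P1 and 756, 665 and 1028 at P7, and rose by 2.23 (adjusted p 0.000502). In each of these 3 the P7 libraries lay above those of P1.

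Ston2 and Otof turned between steps, and Syt10 rose from P7 on. The P7 libraries of Syt10 lay below those of P1, a step that was not called. Ston2 (stonin 2), an endocytic adaptor of synaptotagmin, had 1153, 1282 and 984 normalized counts at P1, 348, 192 and 277 at P7, 627, 479 and 455 at P14, and 1371, 719 and 2220 at P28. It fell by -2.09 to P7 (adjusted p 0.00167) and rose by 1.33 from P14 to P28 (adjusted p 0.0189), the latter lost without P14 replicate 2 or 3 (0.0585 and 0.0715) or P28 replicate 3 (0.0539) and with only the time points compared (0.106), in a range of 0.000697 to 0.106. Otof (otoferlin), the calcium sensor of hair cells, had 75.7, 75 and 69.7 at P1, 10.4, 1.31 and 14.7 at P7, 248, 81.5 and 169 at P14, and 146, 468 and 52.7 at P28. Its P7 libraries were the lowest without overlap. Otof fell by -3.32 (adjusted p 0.0255) and then rose by 4.35 (adjusted p 0.00194), and the fall was lost without P1 replicate 1, 2 or 3 (0.0897, 0.0869 and 0.0639) or P7 replicate 2 (0.118), in a range of 0.00172 to 0.118. Syt10, a calcium sensor of growth factor secretion, had 44.3, 120 and 37.1 at P1, 18.3, 18.3 and 24.8 at P7, 122, 246 and 227 at P14, and 1225, 574 and 1168 at P28. From P7 on, each time point of Syt10 lay above the one before, with rises of 3.16 (adjusted p 0.000502) and 2.30 (adjusted p 0.00965).

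Synj2 (synaptojanin 2), a lipid phosphatase of endocytosis, had 51, 94.2 and 39.5 normalized counts at P7 and 454, 582 and 424 at P14, and rose by 3.04 (adjusted p 0.000216). Stx8, an endosomal syntaxin, had 174, 115 and 294 at P14 and 454, 659 and 404 at P28. It rose by 1.45 (adjusted p 0.0332), which was lost without P14 replicate 1 or 2 (0.0867 and 0.122) or P28 replicate 2 (0.0801), with library totals (0.0633) and with only the time points compared (0.098), in a range of 0.0115 to 0.122. For both genes the later libraries lay above the earlier.

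Transporters and sensors of low level fell. Slc30a3 (ZnT3), the zinc transporter of vesicles, had 27.9, 14.4 and 29.5 normalized counts at P7 and 1.06, 0 and 0 at P14. Slc10a4, an orphan transporter of vesicles, had 11.1, 14.4 and 10.1 at P7 and was at 0 in the 3 P14 libraries. Slc17a8 (VGLUT3), the third glutamate transporter, had 6.37, 11.8 and 11.6 at P7 and 2.12, 0 and 0 at P14. All 3 were called lower (adjusted p 0.00166, 0.00395 and 0.0171), and the call of Slc17a8 was lost without P7 replicate 2 or 3 (0.0663 and 0.0664) or P14 replicate 2 (0.054), with a pseudocount of 10 (0.0888) and in both edgeR fits (0.0603 and 0.0584), in a range of 0.01 to 0.0888. From P14 to P28, Syt5, Rimbp2 and Stxbp2 were the called genes that fell the most at a pseudocount of 1. Syt5, a sensor of dense-core vesicles, went from 69.9, 31.7 and 83.6 to 0, 25.9 and 0, and Stxbp2 (Munc18-2), a syntaxin partner of secretory cells, from 238, 161 and 354 to 11.7, 56.6 and 31.1. Rimbp2, which links Rims to calcium channels, went from 41.3, 5.29 and 19.5 to 0, 0 and 6.76, with an overlap between the time points. Syt5 (adjusted p 0.016) lost its call without P14 replicate 1 or 3 (0.0538 and 0.063), in both edgeR fits (0.106) and with only the time points compared (0.139), in a range of 0.000413 to 0.139. Stxbp2 (adjusted p 0.0096) lost it with only the time points compared (0.0644), in a range of 9.04e-05 to 0.0644. Rimbp2 (adjusted p 0.0378) lost it without any of 10 libraries, the exceptions being P14 replicate 2 and P28 replicate 3. It also lost it with no filter (0.0652), with a pseudocount of 10 (0.104), in both edgeR fits (0.0771 and 0.0776) and with only the time points compared (0.176), and its adjusted p ranged from 0.0077 to 0.176.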

How the data were processed

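RNA of GFP-positive cells sorted from the cerebellum was sequenced in 12 libraries. Per the paper's methods, the authors used STAR and the mm10 genome, built count matrices from UCSC gene models, and scaled them with DESeq2. The submitters' processing notes name FastQC 0.11.7, MultiQC 1.11, STAR 2.5.0a and DESeq2 1.30.1. How strand and shared reads were handled is not given in the sources used here. The deposited signal is on the scale of normalized counts: the authors divided the counts of a library by its size factor, and undoing this gave whole reads for 100% of values (within 0.01). Columns without a sample numbered 0.

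limma 3.58.1 (R 4.3.3) was fitted to log2(normalized count + 1) with a mean per time point and a variance trend, over genes with at least 10 in at least 3 libraries. edgeR 4.0.16 and DESeq2 1.42.0 on the recovered reads were alternatives. Others were TMM scaling, library totals, no filter, at least 10 reads in every library, pseudocounts of 0.1 and 10, the replicate number as a block, fits of only the time points compared, an unadjusted p under 0.05 with a log2 fold change over 0.75, and each library left out. The limma, edgeR and DESeq2 fits of all time points and the permutation test of the ratios were run on simulated data. The replicate block, the fits of only the time points compared and those with a library left out were not. The 38 genes, the wider list and the marker lists were chosen with earlier results of these data known.

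Genes of the 38 called in a consecutive step were named with values where they led their role by change or level, others with ranges, and from the wider list up to 3 rising and 3 falling called genes per step with the largest change. Marker genes were named as their lists give them. Gene positions, exonic lengths and overlaps come from GENCODE M21 (GRCm38, the build mm10), and promoters from RefSeq GRCm38.p6. Lists of granule neuron precursors, Purkinje cells, unipolar brush cells, oligodendrocyte precursors, microglia, endothelial cells and choroid plexus were also read, and their values stand in the closing section.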

Additional observations from a re-analysis of the deposited data

How the results depend on the processing

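Of 90 single-gene results, 58 kept their call under every alternative, and of 2138 alternative values 163 lost the call and 0 changed sign. With only the time points compared, counts of the 38 genes were 19 higher and 2 lower from P1 to P7 and 3 lower from P14 to P28. All genes tested moved the same way in that setting. They were 1349 higher and 1471 lower from P1 to P7 (536 and 655 as reported). From P7 to P14, 2442 were lower (1551), and from P14 to P28, 393 were higher and 373 lower (878 and 1354). At the unadjusted threshold, 20 of the 38 were higher from P1 to P7. The 1 lower gene of that step became 0 with no filter and in both edgeR fits, and 2 with a pseudocount of 10 or DESeq2. With at least 10 reads in every library, which leaves 30 of the 38, the counts lower were 1 from P7 to P14, 5 from P14 to P28 and 1 from P1 to P28. This filter takes out Stx1a, Synpr, Syngr3, Sv2c, Rab3b, Slc17a6, Slc17a7 and Slc32a1. All of these but Slc17a7 had been called lower in at least 1 of these comparisons, so those calls could not be counted. Library totals gave a median of 0.94 from P1 to P28 and moved the median of all genes to -0.34 from P7 to P14, -0.35 from P14 to P28 and -0.66 from P1 to P28, with 32.9%, 19% and 21.1% of the called genes higher (51.9%, 39.3% and 42.3% as reported). No call among the 38 changed direction with it. The wider list was 9 higher in the last step with DESeq2, 8 at the unadjusted threshold, 2 with library totals and 1 with only the time points compared (4 lower). Its first step was 20 higher and 13 lower with only the time points compared, 16 and 8 at the unadjusted threshold, and 4 or 5 lower with a pseudocount of 10 or DESeq2. Its second step was 11 lower with only the time points compared. From P1 to P28 it was 15 higher and 26 lower with library totals, and 2 lower with at least 10 reads in every library. The cause of these moves was not tested, other than the fewer genes or libraries in a fit.

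With each library left out, calls among the 38 were 6 to 15 higher and 0 to 1 lower from P1 to P7, and 5 to 12 lower from P14 to P28. The wider list was 6 to 11 higher and 1 to 4 lower in the first step, 18 to 31 and 4 to 9 in the second, 2 to 7 and 10 to 20 in the last, and 23 to 32 and 10 to 17 from P1 to P28. The adjusted p ranged from 0.0158 to 0.255 for Vamp2 to Vamp3, 0.00325 to 0.0832 for Stx1a to Stx4a, 0.00179 to 0.177 for Syt1 to Syt11, 0.0175 to 0.216 for Cplx1 to Cplx2 and 0.0148 to 0.139 for Rims1 to Rims2. A pseudocount of 10 took Syt1 to Syt11 to 0.0535 and Rims1 to Rims2 to 0.0563.

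Libraries of the same replicate number shared little: their deviations correlated at -0.029 to 0.139 over 18 pairs, 1 of them over 0.1. Libraries of different numbers correlated at -0.105 to 0.054, and 9 of the 12 libraries correlated best with their own number. A weak pairing by replicate number can therefore not be denied. With the replicate block, 0 of the 38 were lower from P1 to P7, Syt11 having an adjusted p of 0.0616, and the ratios of Syt1 to Syt11 and Rims1 to Rims2 had 0.124 and 0.129. Depth limits genes of few reads, such as Rab3b and Slc17a6 at P28 and Slc17a7 at P1.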

Other observations

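Marker lists of further cell types were also read. The shares of all genes tested called higher were 3.47%, 10.8% and 5.68% in the 3 steps, and those called lower 4.24%, 10% and 8.76%. Of 9 granule neuron precursor markers, 1 was called higher from P1 to P7, and 1 was called higher and 5 lower in each of the later steps. The higher ones were Gli1 from P7 to P14 (1.81, adjusted p 0.00479, limma) and Gli2 from P14 to P28 (0.90, adjusted p 0.0193). Their summed level was between 11001 and 16330 at P1, 21036 and 28866 at P7, 2611 and 4002 at P14, and 1639 and 2799 at P28, and Atoh1, the transcription factor that defines these cells, was at 0 in all P14 and P28 libraries. Of 8 Purkinje cell markers tested, 2 were called higher and 1 lower in each of the first steps, and 1 was called higher from P14 to P28. Their summed level was 3093 to 3538, 4290 to 4616, 4229 to 4679 and 5223 to 8144 at the 4 time points. Itpr1 and Rora carried most of the sum at P28, with means of 2777 and 3266. Of 5 markers of unipolar brush cells, 1 and then 2 were called higher and 1 then lower, with summed levels of 181 to 317, 419 to 742, 1449 to 2454 and 741 to 882.

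Oligodendrocyte precursor markers summed to between 57727 and 80698 at P1, 14610 and 27934 at P7, 29035 and 34186 at P14, and 55105 and 63167 at P28. Of the 7, 3 were called lower in the first step, 3 higher and 1 lower in the next, and 1 higher and 4 lower from P14 to P28. Ptprz1 carried most of the sum, with 50418 to 69209 at P1 and 52117 to 60706 at P28. Between P1 and P28, Pdgfra, Cspg4, Olig1 and Olig2 were called lower, by -3.40, -4.82, -2.26 and -3.43, and 0 of the 7 higher at the adjusted threshold or at an unadjusted p under 0.05 (limma). Microglia markers summed to 955 to 1767, 1476 to 2132, 2589 to 3855 and 1853 to 2306, with 1 and 2 of 8 called higher in the first steps. Endothelial markers summed to 463 to 2379, 1346 to 9260, 5361 to 6355 and 3439 to 5132, with 1 of 7 called higher in each of the first steps and 1 lower in the last. Choroid plexus markers summed to 1198 to 2691, 49154 to 129911, 1348 to 111225 and 18056 to 184608, with 3 of 7 called higher from P1 to P7 and 1 lower from P14 to P28. The part of these cells in the values of the vesicle genes was not tested.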
